A study of Mus musculus with 22 samples.

Results

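miR-128 is made in mice from 2 hairpins, Mir128-1 in an intron of R3hdm1 and Mir128-2 in an intron of Arpp21. Its members here were the rows of the miRNA-seq count table that carry the miR-128 name, which were 3 of 1966 mature names: mmu-miR-128-3p, the product that both hairpins share, and the locus-specific opposite arms mmu-miR-128-1-5p and mmu-miR-128-2-5p. The levels of miR-128-3p in KO and KI round spermatids (RS) against WT were known when these rows were chosen. Those comparisons are therefore given as descriptions with no test, and nothing is read from how many members passed a threshold.

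A miRNA hairpin is cut by Drosha and then Dicer into a short duplex, and usually 1 of its 2 arms is kept in an Argonaute protein, where its seed pairs with target mRNAs. miR-128 is best known as an abundant miRNA of neurons, where its loss leads to increased excitability. R3hdm1 and Arpp21, the host genes, encode related proteins with an R3H domain, which binds nucleic acid. The 3p arms of miR-27a and miR-27b carry nearly the same seed as miR-128-3p, moved by 1 base.

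The sequences show why the 3p product cannot be assigned to a host gene and why the 5p arms could be. They are the RefSeq mature sequences for GRCm38.p6, 5′ to 3′, and capitals mark the seed, bases 2 to 8.
miR-128-3p: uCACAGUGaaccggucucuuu
miR-128-1-5p: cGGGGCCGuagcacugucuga
miR-128-2-5p: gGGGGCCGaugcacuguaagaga
miR-27a-3p: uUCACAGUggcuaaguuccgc
miR-27b-3p: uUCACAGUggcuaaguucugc
The 5p arms shared the seed GGGGCCG and had the same base at 16 of 21 positions when aligned from their 5′ ends, so reads of the 2 arms can be told apart. Of 1679 mature sequences searched, 1 (miR-128-3p itself) had the seed CACAGUG. The run ucacagug, 8 bases long, begins at the first base of miR-128-3p and at the second base of miR-27b-3p.

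The 2 hairpins are shown for the same reason, with the mature arms in capitals.
Mir128-1: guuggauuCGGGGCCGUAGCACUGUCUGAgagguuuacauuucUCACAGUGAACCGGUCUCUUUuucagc
Mir128-2: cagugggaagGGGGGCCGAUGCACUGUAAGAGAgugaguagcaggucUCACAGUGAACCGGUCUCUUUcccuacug
On GRCm38, Mir128-1 (70 bases) lies at chr1:128202361-128202430 on the plus strand and Mir128-2 (76 bases) at chr9:112118636-112118711 on the minus strand. The table gives miR-128-3p 2 loci, chr1:128202404-128202424 and chr9:112118644-112118664. miR-128-1-5p lies at chr1:128202369-128202389 and miR-128-2-5p at chr9:112118679-112118701. Each locus was inside an intron and overlapped 0 exons of its host, R3hdm1 (chr1:128103301-128237736, plus strand) or Arpp21 (chr9:112065091-112235938, minus strand). The hairpins were identical over a run of 23 bases that held the whole 3p arm, with 2 bases before it and 0 after it. No other mature name of the table overlapped these loci.

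RS are the haploid germ cells that follow meiosis, and the study asked how their miRNAs depend on GRTH (DDX25), an RNA helicase of male germ cells. They were separated by sedimentation of testicular cells from mice of 75-85 days. KO mice lacked GRTH. The paper describes the KI mice as transgenic for human GRTH with an arginine-to-histidine change, and they lack the phosphorylated form of GRTH. The labels put 5 WT and 5 KO libraries in the batch called 1 here and 6 WT and 6 KI libraries in batch 2, so KO and KI never shared a batch. The methods give the batches in the opposite order, and the labels were followed. They do not say whether libraries of a group came from separate animals, so p-values measure the spread between these libraries, which may be technical. The host mRNAs and the Ddx25 transcript were not analysed here.

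Total counts ranged from 870913 to 1081333 in WT and from 559957 to 881323 in KO of batch 1. In batch 2 they ranged from 2067322 to 3239357 in WT and from 2107461 to 3101145 in KI. A count of 3, taken as the floor, corresponded to 0.926 CPM (counts scaled to one library size) in the deepest library and 5.36 CPM in the shallowest. Floors and intervals hold counting error alone, since PCR copies of 1 molecule cannot be recognised in these counts. All 11 measured members of a list of germ cell miRNAs had counts in every group. Together they held between 236881 and 359740 CPM by library total in every library.

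miR-128-3p was detected in every library of RS. It held 0.0579% of the counts in WT of batch 1, where it was the 106th most abundant of 844 names with counts, and 0.0583% in WT of batch 2, where it was the 99th of 942. In KO it held 0.0449% (122nd of 832 names) and in KI 0.0485% (105th of 962 names).

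In batch 1 the KO libraries held less miR-128-3p than the WT libraries. The counts were 493, 542, 573, 629 and 597 in WT replicates 1 to 5 and 363, 386, 299, 246 and 282 in KO replicates 1 to 5. In CPM scaled by TMM, the trimmed-mean scaling of edgeR, the WT libraries held 499, 526, 529, 507 and 549 CPM. The KO libraries held 419, 342, 334, 353 and 398 CPM on the same scale. Every KO library lay below every WT library, and the lowest WT library (499 CPM) was above the highest KO library (419 CPM). The means were 522 ± 19.9 CPM (SD, n = 5) in WT and 369 ± 37.3 CPM (SD, n = 5) in KO. The edgeR fit, which weights libraries by their counts, gave a log2 fold change of -0.47 (SE 0.08, 95% confidence interval -0.65 to -0.30) or -28.0%. In bulk libraries such as these, fewer cells that make a miRNA and less of it per cell cannot be told apart.

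By library total, without TMM, the KO libraries were again below WT, at 468, 438, 445, 439 and 454 CPM against 566, 564, 597, 582 and 587 CPM. The means were 579 CPM in WT (coefficient of variation 2.42%, n = 5) and 449 CPM in KO (2.78%, n = 5). The spread of KO was wider with TMM, with a coefficient of variation of 10.1%, and counting error alone gives 5.63% at these counts. In WT the spread with TMM was 3.81%, beside a counting error of 4.20%. The TMM factors ran from 1.12 to 1.33 in KO and from 1.07 to 1.15 in WT.

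In batch 2 the KI libraries were lower than WT by a smaller amount, and the groups nearly met. The counts in WT replicates 1 to 6 were 1182, 1242, 1334, 1547, 2016 and 1746, and those in KI replicates 1 to 6 were 1396, 1266, 1183, 1241, 1077 and 1118. With TMM, WT had a lowest value of 586, a median of 703 and a highest value of 753 CPM, and KI had 475, 527 and 584 CPM. Every KI library lay below every WT library on this scale, but WT replicate 3 (585.7 CPM) and KI replicate 6 (584.3 CPM) were almost equal. The means were 687 ± 67.0 CPM (SD, n = 6) in WT and 531 ± 44.9 CPM (SD, n = 6) in KI. The log2 fold change fitted by edgeR was -0.35 (SE 0.08, 95% confidence interval -0.52 to -0.17) or -21.4%.

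By library total the batch 2 groups overlapped. WT ran from 517 to 622 CPM (mean 583 ± 46.0, SD, n = 6) and KI from 429 to 535 CPM (mean 485 ± 40.5, SD, n = 6). KI replicate 2, the highest KI library at 535 CPM, was above WT replicates 1 and 3 at 517 and 532 CPM. The other 5 KI libraries were below all 6 WT libraries.

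**Figure D1:**
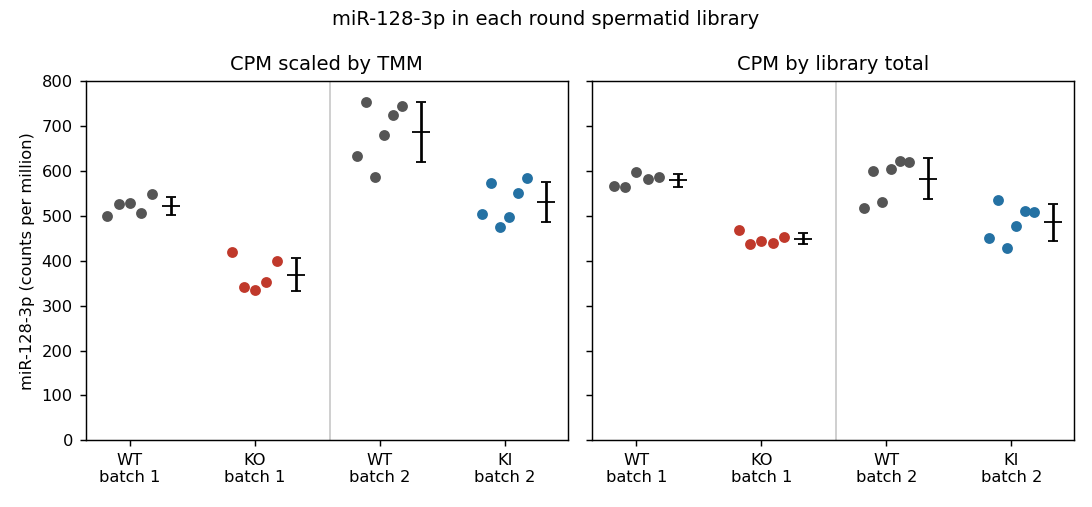
Level of miR-128-3p in each library, in CPM scaled by TMM (left) and in CPM by library total (right). Points are libraries and bars are the group mean ± SD. KO lies below WT of its batch on both scales, and KI lies below WT with TMM (475 to 584 against 586 to 753 CPM) but overlaps it by library total.

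Of the 3 members, miR-128-3p alone passed the filter on low counts in each comparison, and its own p is not given for KO or KI. Of all names tested, 20.7% were called lower at an edgeR adjusted p under 0.1 in KO (41.9% in either direction) and 19.9% in KI (38.0% in either direction). Of the calls, 50.7% were higher in KO with TMM but 69.7% with library size alone, and in KI 47.6% with TMM but 64.4% with library size alone. The share of all names whose groups did not overlap, with the mutant lower, was 11.7% for KO with TMM and 7.19% by library total. For KI the share with TMM was 8.79%. Both comparisons were used in choosing miR-128, so these shares give the setting of the values only.

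Among all names tested the change of miR-128-3p was moderate. It was the 30th lowest of 334 log2 fold changes in KO and the 58th lowest of 387 in KI. The median log2 fold change of all names was 0.01 for KO and 0.00 for KI. Relative to that median, miR-128-3p changed by -0.49 in KO and -0.35 in KI.

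**Figure D2:**
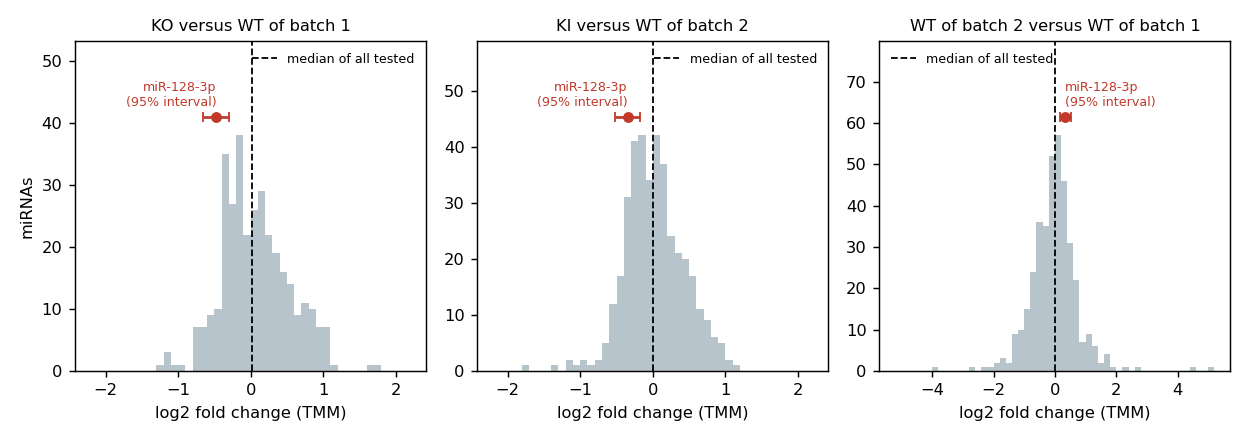
Log2 fold changes (TMM) of all miRNAs tested for KO versus WT, KI versus WT and WT between batches. Bars count miRNAs, the dashed line is their median, and the point with its bar is miR-128-3p with its 95% confidence interval. miR-128-3p lies below the median for KO (-0.47) and KI (-0.35) and above it for WT of batch 2 against batch 1 (0.34).

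The KO change minus the KI change was -0.13 on the log2 scale (SE 0.12, 95% confidence interval -0.38 to 0.12), in a fit of all 4 groups. This interval holds 0, and it also holds differences as large as the KI change itself, so it does not show that KO and KI act alike. KO and KI were measured in different batches against different WT libraries. Over all 421 names of that fit, 0 (0.0%) were called by edgeR at an adjusted p under 0.1 and 67 (15.9%) had an unadjusted p under 0.05, and DESeq2 called 0 as well. Without KI replicate 2, edgeR called 26 names, and without KO replicate 5 the miR-128-3p difference was -0.27.

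WT libraries of the 2 batches, a comparison not used to choose miR-128, gave an answer that depended on the scaling. With TMM, all 6 WT libraries of batch 2 (586 to 753 CPM) were above all 5 of batch 1 (499 to 549 CPM). The log2 fold change was 0.34 (SE 0.08, 95% confidence interval 0.16 to 0.52, edgeR quasi-likelihood test, adjusted p = 0.00328). Of all 383 names tested, 26.9% were called higher in batch 2 and 56.7% in either direction, and 19.3% had groups that did not overlap with batch 2 higher. Of the calls, 47.5% were higher in batch 2 with TMM but 19.6% with library size alone. By library total the ranges overlapped, 517 to 622 CPM in batch 2 against 564 to 597 CPM in batch 1, and the log2 fold change was 0.01 (SE 0.07, edgeR adjusted p = 0.917). With library size alone the median of all names moved to -0.34, from -0.01 with TMM. Relative to the median of all names, miR-128-3p was higher in batch 2 by 0.35 under both. The same WT libraries differed in muscle miRNAs, with miR-1a-3p higher in batch 2 by 5.03 (SE 0.63, edgeR adjusted p = 9.02e-06) and miR-133a-3p by 4.53 (SE 0.72, edgeR adjusted p = 8.25e-05) on the log2 scale. The summed level of the muscle list was 18.5 to 40.5 CPM in WT of batch 1 and 59.4 to 774 CPM in WT of batch 2, and its part in the level of miR-128-3p was not tested.

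miR-128-3p was also set against germ cell miRNAs of the same library, which scales each library by its summed germ cell list. It is the same scaling as the germ cell alternative given below. The germ cell list held miR-34c-5p, miR-34b and miR-449 arms and testis miRNAs of the X-linked clusters. For each 1000 counts of the list, WT of batch 1 held 2.15 ± 0.12 counts of miR-128-3p (SD, n = 5, range 2.03 to 2.34) and KO held 1.77 ± 0.05 (SD, n = 5, range 1.74 to 1.85). All 5 KO libraries were below all 5 WT libraries in this ratio, as were 3.89% of all names tested in KO when each was divided by the list. In batch 2, WT held 1.66 ± 0.16 (SD, n = 6, range 1.44 to 1.81) and KI 1.41 ± 0.16 (SD, n = 6), with KI libraries reaching 1.6, so the ranges overlapped. On the log2 scale the ratio of means was -0.28 for KO and -0.23 for KI.

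The names of the list were not level between genotypes. Of its 11 names tested, 7 were called lower and 1 higher by edgeR in KO (median log2 fold change -0.23), and 7 lower and 0 higher in KI (median -0.30). Over all names, 20.7% were called lower and 21.3% higher in KO, and 19.9% lower and 18.1% higher in KI. With library size alone the list had 4 lower and 3 higher in KO, and 5 lower and 2 higher in KI. That scaling also moved the calls over all names, of which 69.7% were higher in KO and 64.4% in KI. With TMM these shares of the calls were 50.7% and 47.6%. Against WT of batch 1, WT of batch 2 had less miR-128-3p per count of the list (log2 ratio -0.38), the opposite direction to the TMM value. miR-34c-5p, the most abundant list member, was itself higher in WT of batch 2, at 0.91 on the log2 scale (SE 0.07) with an edgeR adjusted p of 5.83e-08.

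**Figure D3:**
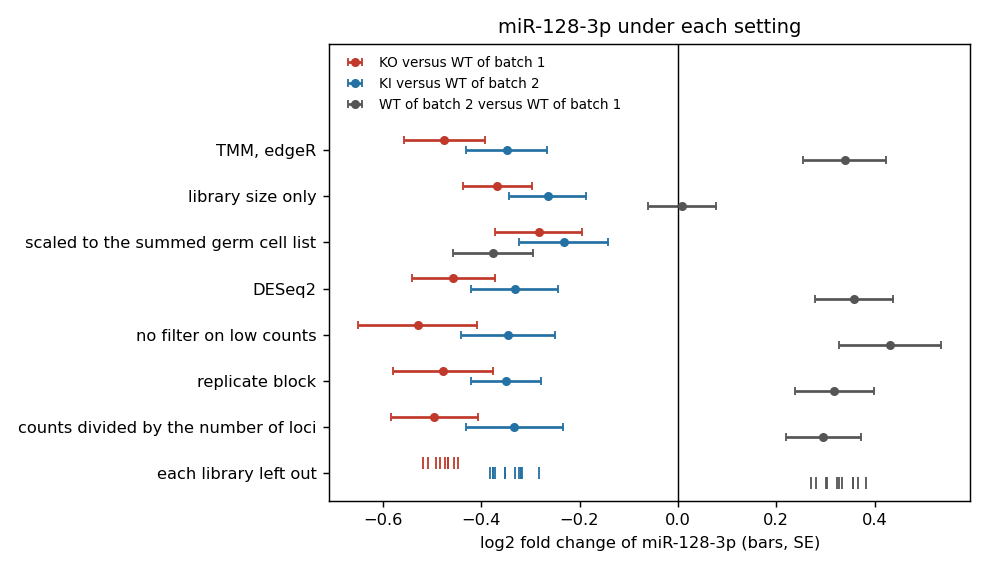
Log2 fold change of miR-128-3p (horizontal axis) under each scaling, tool or filter, with bars of 1 SE. Short ticks in the lowest row are the fits that leave out 1 library each. The KO values (-0.53 to -0.28) and KI values (-0.38 to -0.23) stay below 0, while WT of batch 2 against batch 1 runs from 0.43 through 0.01 to -0.38.

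The 5p arms were almost unseen. miR-128-1-5p, the opposite arm of the R3hdm1 hairpin, had 20 counts in all, in 13 of 22 libraries, with at most 3 in any library. By group it had 5 counts in WT of batch 1, 5 in KO, 3 in WT of batch 2 and 7 in KI. The counts were 0, 2, 0, 1 and 2 in WT and 0, 1, 0, 3 and 1 in KO of batch 1. They were 0, 0, 1, 0, 1 and 1 in WT and 2, 1, 2, 0, 2 and 0 in KI of batch 2. No library was above the floor of 3 counts, the groups overlapped, and no fold is given. A difference between genotypes was not detectable at this depth.

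miR-128-2-5p, the opposite arm of the Arpp21 hairpin, had 0 counts in all 22 libraries. Over 39010121 counts this allows a level of up to 0.0769 CPM, or up to 0.0144% of all miR-128 counts. All 20 counts of a miR-128 5p arm were thus assigned to the R3hdm1 locus. With 1 arm at 0 throughout, a share of each locus could not be followed between genotypes, and the 5p counts do not say from which hairpin the 3p counts came.

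All but a small part of the miR-128 counts were of the 3p product. The 5p arms made up 0.0963% of all miR-128 counts (exact 95% binomial interval 0.0588% to 0.149%). By group the share was 0.176% (0.0572% to 0.411%) in WT and 0.316% (0.103% to 0.736%) in KO of batch 1. In batch 2 it was 0.0331% (0.00682% to 0.0966%) in WT and 0.0960% (0.0386% to 0.198%) in KI. The intervals of KO and WT overlapped, and so did those of KI and WT. If each 3p read had been counted once at each of its 2 loci, the overall share would be 0.192%.

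As a log2 ratio of 3p to 5p counts with 0.5 added to each, WT had 10.74 ± 0.72 (SD, n = 6) in batch 2 and 8.90 ± 1.12 (SD, n = 5) in batch 1. The difference was 1.85. The summed 3p counts of WT were 3.20-fold higher in batch 2 while the 5p counts stayed at or under the floor in both batches. The library totals of the 2 batches did not overlap, so depth and batch cannot be told apart in this ratio, and no p is given for it. The intervals of the 5p share in WT of batch 1 and of batch 2 overlapped.

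Other miRNAs of the same layout, with 1 arm shared by several loci and opposite arms specific to each, put the 5p share of miR-128 in the middle. Of 18 such names with counts, the opposite arms of the other 17 made up a median of 0.139% of the counts of the name. let-7f had the lowest share at 0.00730% and miR-129 the highest at 82.0%. miR-128 was above 7 and below 10 of them. An opposite arm with 0 counts was not particular to miR-128, since 5 of the other 17 had one.

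**Figure D4:**
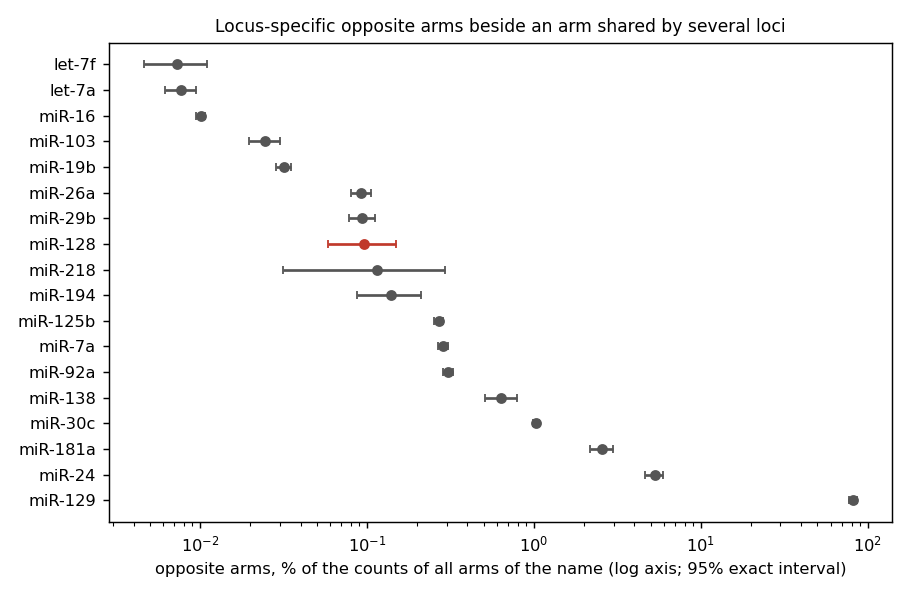
Counts of locus-specific opposite arms as a percent of all counts of the name, summed over 22 libraries, on a log axis with 95% exact binomial intervals. miR-128 (0.0963%) lies between miR-29b (0.0940%) and miR-218 (0.115%).

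How the table counted reads of miR-128-3p at 2 loci was looked at from the counts themselves. A name counted once at each of 2 loci would have an even count in every library. miR-128-3p was even in 12 of 22 libraries, while 9 of 38 names with 2 loci and at least 500 counts were even in all 22. miR-465b-3p, with 2 loci, had 378236 counts, and miR-465a-3p, with 1 locus and the same mature sequence, had 189114. How many reads of miR-128-3p were counted at both of its loci is not known. Its level relative to names with 1 locus, its percent of counts and its rank are uncertain by this. Comparisons of miR-128-3p between libraries use the same row.

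miR-27b-3p, a single-locus miRNA with the shifted seed, had 780 counts, far below miR-128-3p with 20758. Its level with TMM was 21.5 ± 4.05 CPM in WT and 30.2 ± 10.4 CPM in KO of batch 1 (SD, n = 5 each). For KO, edgeR gave a change of 0.50 on the log2 scale (SE 0.24). In batch 2 it was 16.7 ± 4.0 CPM in WT and 22.4 ± 5.13 CPM in KI (SD, n = 6 each). For KI, edgeR gave 0.43 (SE 0.19). Its means were thus above WT in both mutants, and neither change passed the threshold of 0.1. The miR-27 names were also chosen with earlier results known, so their KO and KI values and calls are descriptions. In KO it was called higher under 2 of the alternatives, library size alone (0.60) and scaling to the germ cell list (0.67). Both settings moved all names upward in KO, with medians of 0.13 and 0.21. Of the KO calls over all names, 69.7% and 85.9% were higher under them, against 50.7% with TMM. These calls are thus not particular to miR-27b-3p. In KI miR-27b-3p was called higher under library size alone (0.51), DESeq2 (0.45) and the replicate block (0.44). The same held for counts divided by loci (0.45) and the germ cell scaling (0.54), but not without the filter. Where it was called, 44.2% (replicate block) to 70.5% (germ cell scaling) of all KI calls were higher, against 47.6% with TMM. Between WT batches miR-27b-3p was called lower in batch 2, at -0.41 (SE 0.20) with an edgeR adjusted p of 0.0982. That call was lost with DESeq2 (-0.40), without the filter and with the replicate block (-0.32). miR-27a-3p had 0 counts in all 22 libraries although its opposite arm miR-27a-5p had 127, and miR-27b-5p had 107. The 3 miR-27 names other than miR-27b-3p were below the filter for KO and for KI.

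Because miR-128 is known from neurons, a list of 10 other neuron-enriched miRNAs was described beside it. In KO, 6 were tested, 0 were called higher and 1 lower (median log2 fold change -0.21), beside 21.3% and 20.7% of all names. In KI, 7 were tested, 2 were called higher and 2 lower (median 0.00), beside 18.1% and 19.9% of all names. In KI 1 was lower under library size alone, DESeq2, no filter, the replicate block, counts divided by loci and the germ cell scaling. Under these settings, from 43 (germ cell scaling) to 92 (replicate block) of all names were called lower in KI. In KO 2 of the list were called lower without the filter (9 tested) and 2 with counts divided by loci (6 tested). Over all names, 68 of 937 and 76 of 333 were called lower in KO under these settings. With the germ cell scaling 1 was higher and 1 lower in KO (median -0.02), beside 116 and 19 of all 334 names. miR-138-5p, which also has 2 loci, was called lower in both mutants, with log2 fold changes in KO of -1.11 (SE 0.19) and in KI of -1.34 (SE 0.09). miR-124-3p, the best-known neuronal miRNA of the list, was at 137 CPM in WT and 105 CPM in KO on average (n = 5 each). Its KO change was not called. In KI miR-124-3p was called higher, by 0.46 (SE 0.13). In KI the list thus had calls in both directions. The list was chosen with earlier results known, so its KO and KI calls are descriptions.

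Several miRNAs listed as markers of other cell types were higher in both mutants. Which cells their reads came from was not measured. Of 7 blood and immune miRNAs that could be tested, edgeR called 4 higher and 0 lower in KO (median log2 fold change 0.68), and 6 higher and 0 lower in KI (median 0.56). Over all names, 21.3% were called higher in KO and 18.1% in KI. Their summed level with TMM was 4442 to 5405 CPM in WT and 5002 to 6992 CPM in KO of batch 1, and 3224 to 4278 CPM in WT and 4063 to 6423 CPM in KI of batch 2. miR-142a-3p, the most abundant of the blood and immune list at 4203 CPM in WT of batch 1, was not called in KO (0.11, SE 0.10). Also not called in KO were miR-142a-5p (0.12, SE 0.11) and miR-451a (-0.25, SE 0.59). In KI miR-451a was not called (0.11, SE 0.28). Of 4 vascular and stromal miRNAs, edgeR called 3 higher and 0 lower in each mutant (median 0.77 in KO and 0.55 in KI). Their summed level was 637 to 1710 CPM in WT and 1581 to 3219 CPM in KO, and 1157 to 1930 CPM in WT and 1769 to 3797 CPM in KI. miR-126a-3p of the vascular and stromal list was not called in either mutant, at 0.38 (SE 0.29) in KO and -0.04 (SE 0.25) in KI. Without the filter, 2 of 6 tested names of that list were called higher in KO, beside 62 of all 937 names. Of the muscle list, 1 name was tested and called higher in KO, and 4 were tested with 0 called in KI. Over all libraries the erythroid miR-451a had 1441 counts and miR-144-3p 1, and of the muscle list miR-1a-3p had 10182, miR-133a-3p 1732 and miR-206-3p 0. The part of these lists in the level of miR-128-3p was not tested.

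The 5 names whose pattern over the 22 libraries was most like that of miR-128-3p were picked by the lowest root mean square difference of log2(CPM + 1), each centred on its batch mean, among 329 names with a mean of at least 10 CPM. The first 3 were miR-465b-3p, miR-465a-3p and miR-465c-3p, testis miRNAs of an X-linked cluster, at 0.098 each, where the median of all names was 0.37. Their RefSeq mature sequences were identical (1 distinct sequence of 22 bases in 4 entries), so their reads cannot be told apart and they are taken as 1 pattern. The counts were 378236 for miR-465b-3p, 377038 for miR-465c-3p and 189114 for miR-465a-3p. For miR-465b-3p the log2 fold change was -0.36 in KO (SE 0.06) and -0.34 in KI (SE 0.04). It was lower in WT of batch 2 than in batch 1 by a log2 fold change of -0.72, a direction opposite to that of miR-128-3p with TMM, which centring on the batch leaves out.

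The next were miR-148b-3p at 0.120 and miR-743b-3p at 0.121. For miR-148b-3p the values were -0.33 in KO (SE 0.09) and -0.24 in KI (SE 0.05). For miR-743b-3p, a testis miRNA of an X-linked cluster, they were -0.26 in KO (SE 0.07) and -0.41 in KI (SE 0.05). The 22 libraries share their TMM factors across names, so some likeness is common to any pair of names, and likeness was measured with the genotypes included.

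**Figure D5:**
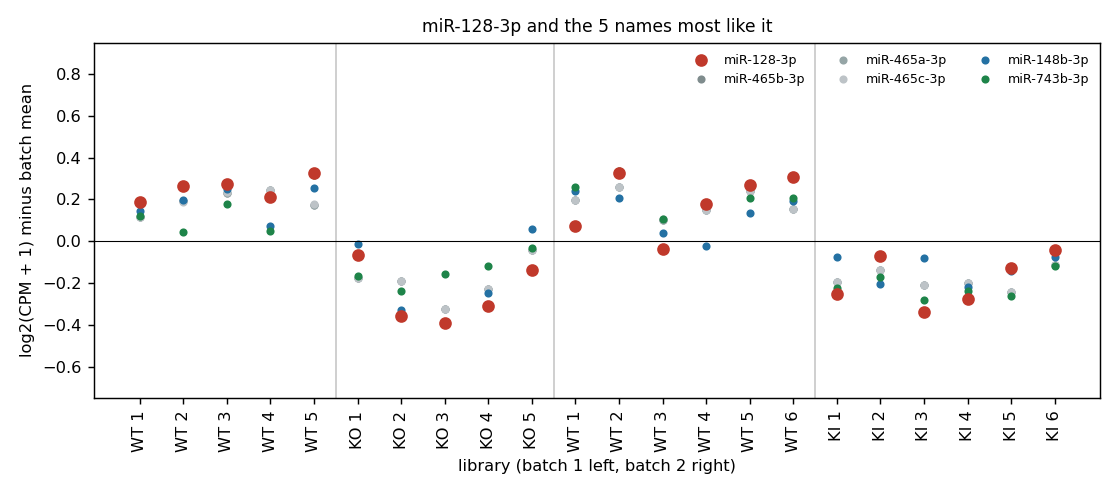
log2(CPM + 1) minus the batch mean for miR-128-3p (large red points) and the 5 most similar names in each of 22 libraries. WT libraries lie mostly above 0 and KO and KI libraries mostly below it for miR-128-3p.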

How the data were processed

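The deposited table held counts, whole numbers of reads per mature miRNA and library. Per the file header and the methods, the authors trimmed adapters (cutadapt 3.4), aligned reads to GRCm38 with Bowtie2 2.4.2 in local mode, reporting many alignments per read, and counted them strand-specifically over miRBase loci with featureCounts (Subread 2.0.1; versions from the submitters' processing notes). How reads of several loci were shared out was not given in the sources used here, and it bears on miR-128-3p, which has 2.

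From these counts, each comparison was fitted over all names with the quasi-likelihood test of edgeR 4.0.16 (R 4.3.3) after filterByExpr and TMM, with group as the only term and Benjamini-Hochberg adjustment, and calls were made at an adjusted p under 0.1. KO was fitted with WT of batch 1, KI with WT of batch 2, WT between batches on its own, and the KO minus KI difference with all 4 groups. The scripts were tested on simulated data. CPM are by TMM unless given by library total, and arm ratios had 0.5 added. The same fit with DESeq2 1.42.0, library size alone, no filter, a replicate block, counts divided by loci, or each library left out was run as an alternative. Scaling to the germ cell list was added after seeing the data. Names given are the members, 4 miR-27 arms, shared-arm names, the 5 most similar names and marker lists, and the members and lists were chosen with earlier results of these data known. miR-469 of the germ cell list was not in the table, so 11 names were used. Every per-sample column was used, with 0 left over. Intervals for shares are Clopper-Pearson. Sequences and gene positions were from RefSeq and the annotation of GRCm38. Python 3.11.15, pandas 2.3.3 and scipy 1.17.1 were used.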

Additional observations from a re-analysis of the deposited data

How the results depend on the processing

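The KO and KI log2 fold changes of miR-128-3p were below 0 under every alternative run. With each library left out they ran from -0.52 to -0.45 in KO and from -0.38 to -0.28 in KI. Scaled to the summed germ cell list, an alternative chosen after seeing the data, the KO value was -0.28 and the median of all names 0.21. That median was 0.13 with library size only. Relative to the median of all names, miR-128-3p was at -0.50 in KO under the germ cell scaling. The WT difference between batches was 0.27 to 0.38 with each library left out (highest adjusted p 0.00977, edgeR), but 0.0088 with library size only (adjusted p = 0.917) and -0.38 scaled to the germ cell list (adjusted p = 8.97e-04). Over all names, the germ cell scaling made 85.9% of the calls higher in KO, 70.5% in KI and 6.98% in WT between batches.

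The KO minus KI difference of miR-128-3p ran from -0.27 (without KO replicate 5) to -0.086 with each library left out. Its count of calls over all names, 0 with TMM, was 0 to 26 with each library left out, with 26 without KI replicate 2 and 1 without WT replicate 1 of batch 2. The causes were not tested. Counts of calls for KO, KI and WT between batches stayed within 1.5 times their TMM value under every alternative run.

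The labels number replicates alike. On average, same-numbered libraries deviated together weakly (mean r 0.051 in KO, 0.196 in KI and 0.119 in WT). The r was over 0.1 in 2 of 5 KO, 3 of 6 KI and 3 of 5 WT pairs, and reached 0.558 in KI. Whether the numbers mark pairs was thus unclear, and the main fits did not use them. With the replicate block, KI had 165 calls, WT 232 and the KO minus KI difference 25, and miR-128-3p was at -0.48, -0.35, 0.32 and -0.13. The 3p to 5p ratio of WT between batches was 1.56 to 2.16 with each library left out and 1.96 with the block, and its permutation test is not read because depth differs between the batches. Depth limits the 5p arms, at 3 counts or fewer in every library.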
